A study of Homo sapiens with 5 samples.

Results

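The genes described here are 50 genes of the kinetochore, the spindle assembly checkpoint and the mitotic spindle. They were chosen by name from the known parts of the division machinery, with earlier results of these data known. Their counts and medians, set beside those of all genes, are therefore a description and not a test. These genes are 50 of the 19775 genes that have at least 1 probe set of their own on the array used. All probe sets listed for them, under their present or an earlier symbol, were taken from the deposited table, which gave 94 probe sets of their own for 49 of the genes. CENPP has no such probe set, and 2 probe sets are shared with another gene.

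RNA came from MHH-ES-1, an established Ewing sarcoma cell line, 48 h after lipid transfection of a synthetic microRNA mimic at 50 nM, and was hybridised to Affymetrix HG-U133 Plus 2 arrays. One group of 2 arrays received the miR-483-5p mimic, 1 array the miR-483-3p mimic and a control group of 2 arrays a scrambled mimic. All 5 arrays thus share the cell line, the transfection and the time of harvest. Within each pair the labels describe the second array as a repeat, without naming a separate culture, so a p-value here reflects how far these arrays scatter, and that scatter may be purely technical.

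The kinetochore is the protein structure that joins each chromosome to spindle microtubules. Its inner layer rests on the centromeric histone CENPA, and its outer layer, built on the NDC80 complex, grips the microtubule. While any kinetochore is unattached, the spindle assembly checkpoint holds back the anaphase-promoting complex, and sister chromatids stay joined. Transcripts of most of these genes accumulate in G2 and mitosis in dividing cells and are low in resting ones. In RNA from whole cultures, more cells in G2 and mitosis and more RNA per such cell cannot be told apart.

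The arrays had been scaled to one trimmed mean, and their median signals ran from 39.2 to 44.9. All 11 measured genes on a list for Ewing sarcoma lines had signals from 791 to 6045 in every array. The list holds CD99 and NKX2-2, and also genes not specific to such lines, such as EWSR1, JAK1 and CCND1. The leukocyte markers measured, 3 of 5, reached at most 32.6 and those of epithelium at most 35.4. DCN of fibroblasts (148 to 201) and PECAM1 of endothelium (132.6 to 169.5) were brighter, and the other fibroblast and endothelial markers reached at most 44.4. The ratio of the 3' to the 5' GAPDH probe set, a sign of RNA integrity, was 1.09 and 1.10 under miR-483-5p, 1.06 under miR-483-3p, and 1.02 and 0.996 under the scrambled mimic. It was higher in every mimic array than in both controls. The same held for the ACTB ratio, at 1.182 and 1.073 under miR-483-5p, 1.093 under miR-483-3p, and 1.065 and 1.04 under the scrambled mimic. The first miR-483-5p array had the highest ACTB ratio and the lowest median signal. The part of these ratios in the differences given next was not tested.

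With either arm of miR-483, the members as a group lay above the scrambled control by a small amount. With miR-483-5p, 44 of the 49 measured members had a higher mean signal than the control, with a median difference of 0.34 on the log2(signal + 32) scale, or 1.27-fold. Adding 32 before taking logarithms damps the noise of dim probe sets and understates their change. Over all 14591 genes tested, 48.5% were higher and the median difference was -0.01. All 49 members passed the filter on dim genes, a mean log2 value equal to a signal of 27.2. With miR-483-3p all 49 were higher, CDC20 by 0.00, with a median of 0.22, or 1.17-fold, beside 49.8% and 0.00 over all genes. Both mimics were set against the same control arrays, so the medians are not independent. Within the pairs, the first array minus the second had a member median of 0.08 in the miR-483-5p pair and -0.08 in the control pair. Taken array by array, the members' median was 0.24 to 0.44 above each control array with miR-483-5p and 0.20 to 0.26 above them with miR-483-3p.

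No single member passed limma's test at an adjusted p under 0.05 in any comparison. The lowest adjusted p of a member was 0.332 for miR-483-5p, 0.638 for miR-483-3p and 0.678 between the arms. Over all genes the share called was 0% in each of the 3 comparisons. At an unadjusted p under 0.05, 23 of the 49 members were higher with miR-483-5p and none was lower, beside 5.3% of all genes higher at that p. That count was 8 without the first control array, 11 without the first miR-483-5p array and 15 without the second control array. With each array centred on its median it was 22, while 60.6% of all genes at that p were then higher, against 49.5% without centring. With miR-483-3p the count was 1, MKI67, beside 2.51% of all genes. It was 9 with a variance prior that follows intensity, beside 2.97% of all genes, and 8 with a pseudocount of 100, beside 2.99%. With 1 array left out, the members' median difference with miR-483-3p was 0.195 to 0.264.

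A simpler count asks in how many genes the arrays of both groups lie apart, with no overlap. Both miR-483-5p arrays were above both control arrays in 39 members, and below them in 1, TPX2. The share of all genes lying apart and higher was 20.3%. The miR-483-3p array was above both control arrays in 42 members and below both in none, and for all genes that share was 33.4%. The shares of all genes are not matched for brightness. Among genes tested, the members ranked from percentile 33.3 (CDC20) to 97.1 (PTTG1) in mean log2 value. With a filter at the 60th percentile, 26 members were higher at an unadjusted p under 0.05 with miR-483-5p, beside 7.76% of all genes.

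**Figure D1:**
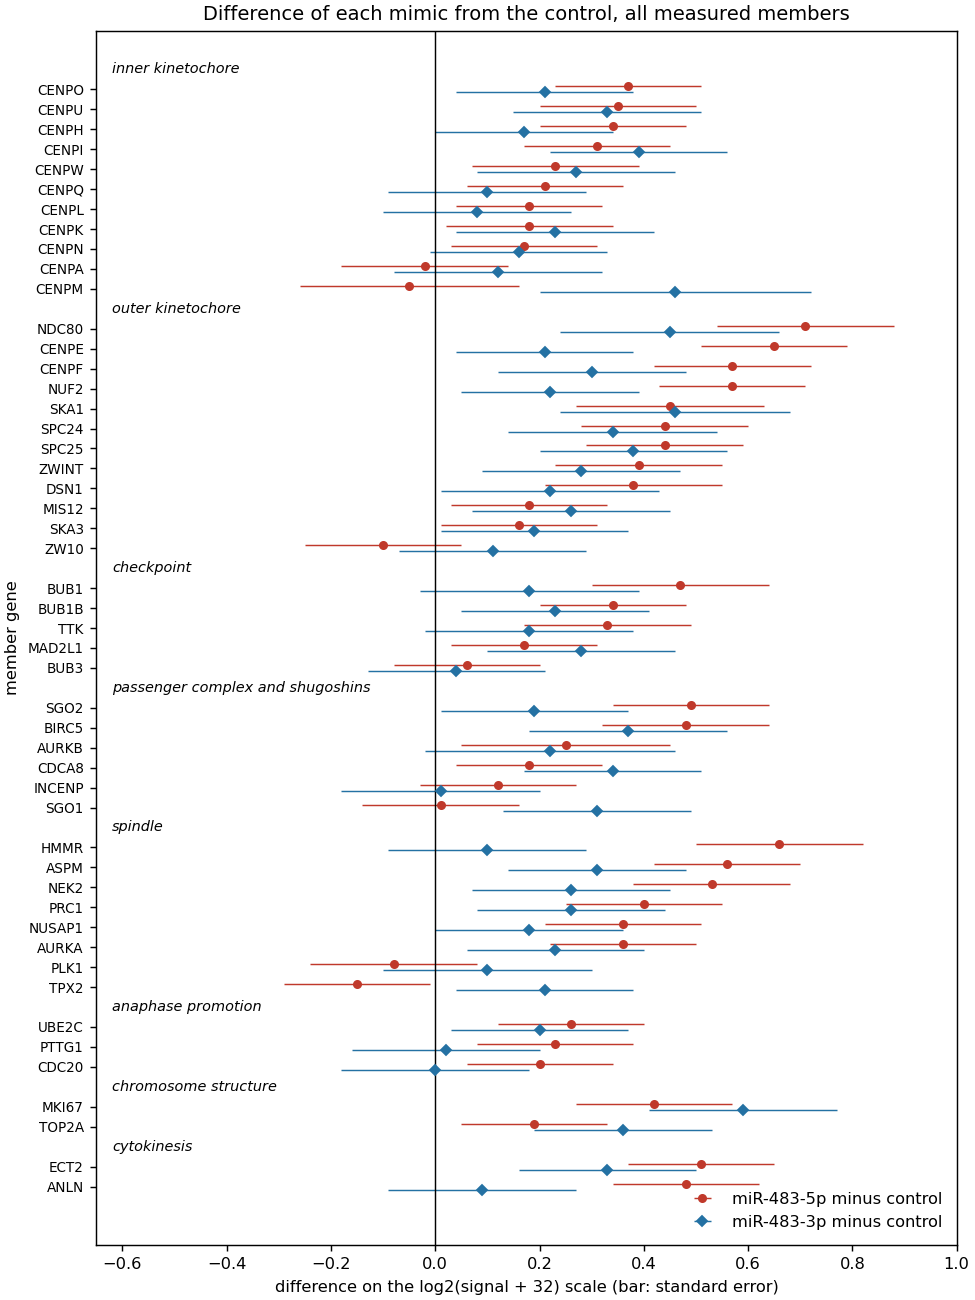
Difference of miR-483-5p (red circles, 2 arrays) and of miR-483-3p (blue diamonds, 1 array) from the 2 control arrays for all 49 measured members, by role, on the log2(signal + 32) scale. Bars are standard errors from the limma fit, and most points lie to the right of 0, with TPX2 at -0.15 the lowest red point and NDC80 at 0.71 the highest.

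The promoters of these genes can be shown beside their values, since mitotic genes are known to share a small set of promoter elements. The cell cycle genes homology region, or CHR, is bound by the DREAM and MuvB complexes, which repress such genes in resting cells and activate them in G2, and CCAAT boxes bound by NF-Y often lie upstream of it. RefSeq promoter windows of GRCh38.p14, from 250 bases before to 50 bases after the annotated start, were matched for 41 of the 50 members. Each was searched on both strands for the CHR letters TTTGAA, the CCAAT box letters CCAAT and the E2F letters TTCCCGCC. The CHR letters were found in 25 of the 41 windows (61.0%), beside 10.9% of 11687 windows of genes tested here and 15.4% of all 27305 windows. The CCAAT box letters stood in 73.2% of member windows, against 36.6% and 35.7%, and the E2F letters in 12.2%, against 4.66% and 3.18%. Both CHR and CCAAT letters were present in 43.9% of member windows and 4.59% of windows of tested genes. The median GC content was 61.7% in member windows and 64.3% in those of tested genes. A match of 5 to 8 letters is a description and not a shown binding site.

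Shown next are the 120 bases before the start of 5 members, each on the strand of its gene, 5′ to 3′, with CHR and CCAAT letters on either strand in capitals. HMMR, ASPM and CENPE are among the members with the larger miR-483-5p differences, and MKI67 has the largest miR-483-3p difference. CENPE, without a match, and PLK1, with a small miR-483-5p difference, are there for contrast. NDC80 (0.71) and NUF2 (0.57), with no whole match in the 120 bases before their starts, are not shown. The 5 shown were chosen with their values known.
HMMR, chr5:163460512-163460631, plus strand: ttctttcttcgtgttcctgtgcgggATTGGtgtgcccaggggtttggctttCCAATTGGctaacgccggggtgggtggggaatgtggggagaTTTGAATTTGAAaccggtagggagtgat
MKI67, chr10:128126424-128126543, minus strand: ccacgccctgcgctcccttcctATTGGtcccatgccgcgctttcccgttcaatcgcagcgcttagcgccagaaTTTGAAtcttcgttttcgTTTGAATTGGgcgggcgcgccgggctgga
ASPM, chr1:197146670-197146789, minus strand: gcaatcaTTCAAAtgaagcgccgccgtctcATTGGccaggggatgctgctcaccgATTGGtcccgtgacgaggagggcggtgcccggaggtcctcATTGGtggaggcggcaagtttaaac
PLK1, chr16:23678769-23678888, plus strand: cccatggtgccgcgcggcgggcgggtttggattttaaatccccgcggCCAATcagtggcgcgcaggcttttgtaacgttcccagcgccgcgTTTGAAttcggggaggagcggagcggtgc
CENPE, chr4:103198344-103198463, minus strand: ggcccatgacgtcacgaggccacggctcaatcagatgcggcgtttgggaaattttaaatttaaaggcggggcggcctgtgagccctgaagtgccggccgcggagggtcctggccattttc

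HMMR holds 2 CHR matches in direct succession, starting at -28 and -22 from the annotated start, and MKI67 holds 2 at -47 and -29. In HMMR a CCAAT match overlaps its own reverse complement, and in MKI67 the second CHR match overlaps a reversed CCAAT box. The match in ASPM is on the other strand, at -113. PLK1 carries a CHR match at -29 and a CCAAT box at -73, and its difference with miR-483-5p was -0.08. CENPE, with no match to the CHR or CCAAT letters, differed by 0.65. Other forms of these elements were not searched, so no match does not mean that an element is absent. Among members with a CHR match the median difference with miR-483-5p was 0.37 (25 genes), and 0.31 among the 15 tested without one. With miR-483-3p it was 0.23 in both. Split by CCAAT letters, the median with miR-483-5p was 0.24 in the 30 members with a match and 0.42 in the 10 without, and with miR-483-3p it was 0.26 and 0.22. Over all tested genes with a window the median was 0.01 with a CHR match and -0.01 without.

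**Figure D2:**
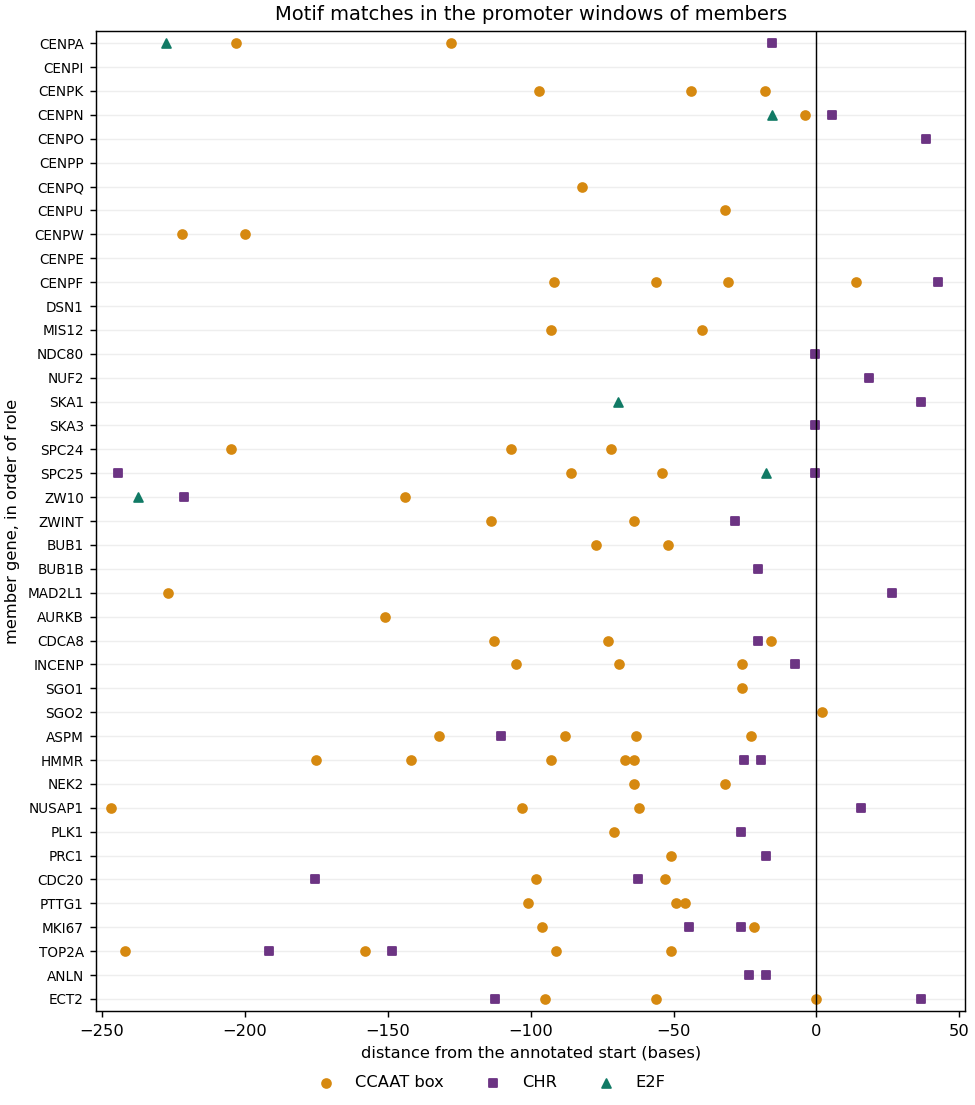
Places of CHR (purple squares), CCAAT box (orange circles) and E2F (green triangles) letters in the 41 promoter windows of members, by distance in bases from the annotated start, which is 0. CHR letters stand in 25 of the windows, often close to the start, and CENPE, CENPI, CENPP and DSN1 have no mark.

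The inner kinetochore genes had a median difference of 0.21 with miR-483-5p, with 9 of 11 measured members higher and 8 lying apart and higher. CENPO, a subunit of the centromere-bound CENP-O complex, read 352 and 316 under miR-483-5p, against 247 and 252 under the scrambled mimic and 293 under miR-483-3p. Both mimic groups were above both controls, by 0.37 (SE 0.14) and 0.21 (SE 0.17). A second CENPO probe set went the other way with miR-483-5p, at 114 and 69.0 against 119 and 128, a difference of -0.35.

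CENPU, of the same complex, read 1365 and 1169 under miR-483-5p, against 992 and 981 under the scrambled mimic and 1245 under miR-483-3p. In this probe set every mimic array was above both controls, at differences of 0.35 and 0.33, and the miR-483-3p array lay between those of miR-483-5p. The other CENPU probe sets, dimmer, gave 0.24 and 0.12 with miR-483-5p and 0.43 and 0.14 with miR-483-3p. In the second of these the miR-483-5p and control arrays overlapped. CENPQ, another subunit, differed by 0.21 and 0.10. CENPP, also a subunit, is listed with LOC100128361 for 1 shared probe set, which read 119 and 149 under miR-483-5p, against 131 and 116 under the scrambled mimic and 109 under miR-483-3p, so its arrays overlapped.

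CENPM, of the CENP-H, CENP-I and CENP-K complex, read 256 and 156 under miR-483-5p, against 213 and 207 under the scrambled mimic and 301 under miR-483-3p. The miR-483-5p arrays lay on either side of the controls, and the miR-483-3p array was above all others, by 0.46 (SE 0.26, limma adjusted p = 0.869) against the control. The partners CENPH, CENPI and CENPK differed by 0.34, 0.31 and 0.18 with miR-483-5p and by 0.17, 0.39 and 0.23 with miR-483-3p. A second CENPI probe set gave 0.38 and 0.65.

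CENPL, which pairs with CENPN, read 398 and 394 under miR-483-5p, against 324 and 368 under the scrambled mimic and 366 under miR-483-3p. In this probe set only the miR-483-5p arrays were above both controls, by 0.18 (SE 0.14). A second CENPL probe set of similar brightness gave 0.32 with miR-483-5p and 0.11 with miR-483-3p. There all mimic arrays were above both controls. CENPN differed by 0.17 and 0.16, but its other probe sets ran from -0.41 to 0.42 with miR-483-5p. CENPW, a histone-fold protein at the centromere, differed by 0.23 and 0.27.

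CENPA, the histone H3 variant that marks the centromere, did not separate the groups in its own probe set, where the arrays read 402 and 455 under miR-483-5p, 388.5 and 483.2 under the scrambled mimic and 473 under miR-483-3p. The brighter probe set listed for both CENPA and SLC35F6 read 1046 and 993, 733 and 920, and 948 in the same order, differences of 0.30 and 0.20. Its signal cannot be assigned to either gene.

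The outer kinetochore genes had a median difference of 0.44 with miR-483-5p, with 11 of 12 higher and all 11 lying apart. NDC80, the microtubule-binding subunit that names its complex, read 833 and 620.3 under miR-483-5p, against 435 and 420.4 under the scrambled mimic and 595 under miR-483-3p. Each mimic array was above both controls, by 0.71 (SE 0.17), or 1.63-fold, with miR-483-5p and 0.45 (SE 0.21) with miR-483-3p. The first miR-483-5p array was the highest, and without it the difference was 0.51.

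The other subunits of that complex stood apart from the control as well. NUF2 read 1439 and 1385 under miR-483-5p, against 939 and 937 under the scrambled mimic and 1094 under miR-483-3p. SPC24 and SPC25, its centromere-facing end, each differed by 0.44 with miR-483-5p and by 0.34 and 0.38 with miR-483-3p. In each of the 4 subunits all mimic arrays lay above both controls. The only other probe set, a dim one of SPC24 at signals up to 17.5, gave -0.20 and -0.27.

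CENPE, the kinesin motor that carries chromosomes to the spindle equator, read 388 and 368 under miR-483-5p, against 233 and 226 under the scrambled mimic and 269 under miR-483-3p. The miR-483-5p arrays were above all others, by 0.65 (SE 0.14), or 1.57-fold, against the control, and no other member had a lower p in limma's fit (adjusted p = 0.332). With miR-483-3p it differed from the control by 0.21 (SE 0.17). CENPF, a large coiled-coil protein of the fibrous corona, differed by 0.57 and 0.30, and a second bright probe set gave 0.64 and 0.38.

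SKA1, of the complex that follows shrinking microtubules, read 263 and 225 under miR-483-5p, against 146 and 197 under the scrambled mimic and 246 under miR-483-3p. Every mimic array was above both controls, the miR-483-3p array lying between those of miR-483-5p, although the control arrays differed from each other more than the nearest mimic array from the nearest control. SKA3, of the same complex, differed by 0.16 and 0.19. DSN1 and MIS12, of the complex that links inner to outer kinetochore, differed by 0.38 and 0.18 with miR-483-5p and by 0.22 and 0.26 with miR-483-3p.

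ZW10, which brings dynein and checkpoint proteins to kinetochores, was the exception in this class. It read 527 and 531 under miR-483-5p, against 521 and 621 under the scrambled mimic and 616 under miR-483-3p, and both mimics lay within the range of the controls. ZWINT, which anchors ZW10 there, differed by 0.39 with miR-483-5p and 0.28 with miR-483-3p, and no arrays overlapped.

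**Figure D3:**
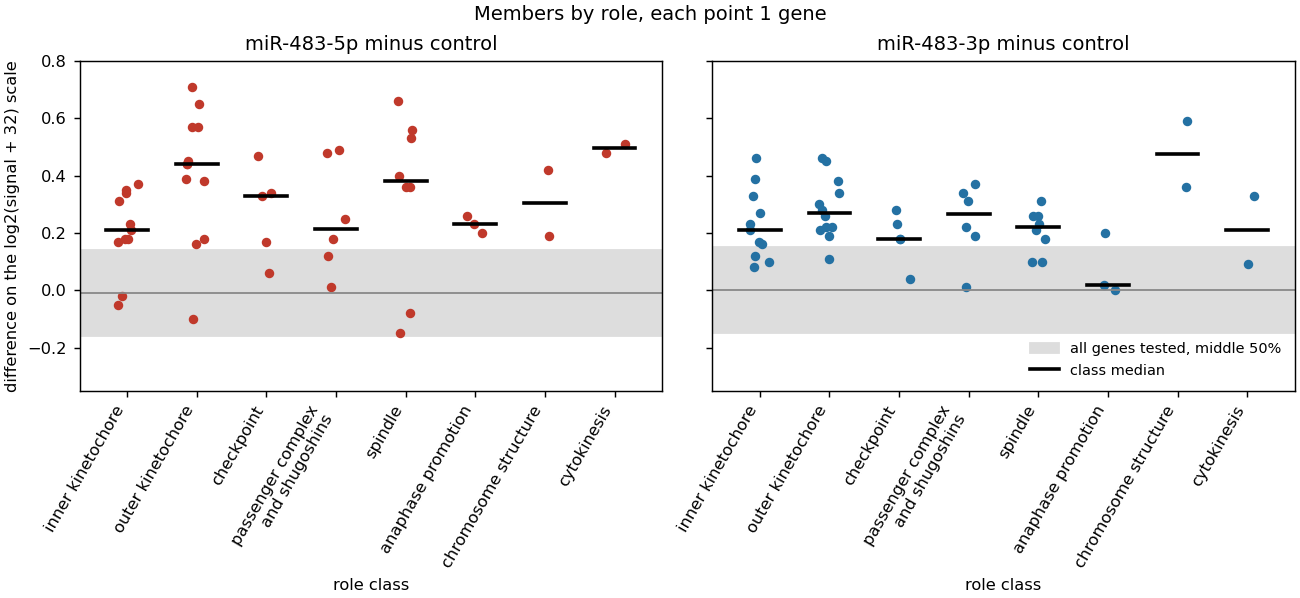
Differences from the control by role class for miR-483-5p (left) and miR-483-3p (right), each point 1 member, black bars class medians, on the log2(signal + 32) scale. The grey band holds the middle 50% of all 14591 genes tested, and the outer kinetochore median (0.44) stands above the inner (0.21) on the left and near it (0.27 against 0.21) on the right.

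The gap between inner and outer kinetochore with miR-483-5p rested in good part on 1 control array. Without the first control array the medians were 0.27 for the inner and 0.30 for the outer genes, and without the second they were 0.27 and 0.56. The difference between classes was not tested, since the genes are not replicates of a condition.

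Checkpoint genes were all on the higher side under miR-483-5p (5 of 5), at a median of 0.33, and 4 lay apart. That median moved to 0.161 when the first miR-483-5p array was left out and to 0.166 with every probe set taken on its own. BUB1, the kinase that recruits the other checkpoint proteins, read 1342 and 1293 under miR-483-5p, against 823 and 1085 under the scrambled mimic and 1078 under miR-483-3p. The miR-483-5p arrays were above both controls, by 0.47 (SE 0.17), and the miR-483-3p array lay between the controls. The next brightest BUB1 probe set gave -0.19 and -0.07.

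BUB1B, which encodes the checkpoint protein BUBR1, read 2431 and 2185 under miR-483-5p, against 1772 and 1859 under the scrambled mimic and 2135 under miR-483-3p. All mimic arrays were above both controls, by 0.34 and 0.23. MAD2L1, the MAD2 protein that binds CDC20, read 2255 and 2068 against 2014 and 1832, and 2345 with miR-483-3p, where it differed most of the class at 0.28 (SE 0.18). Its other 2 probe sets gave 0.09 and 0.30 with miR-483-5p and 0.28 and 0.47 with miR-483-3p.

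BUB3, the partner of BUB1 and BUBR1, hardly differed in its brightest probe set, at 2199 and 2346 under miR-483-5p, against 2081 and 2275 under the scrambled mimic and 2238 under miR-483-3p. The arrays of all 3 groups overlapped. Of its other bright probe sets, with signals of 825 or more, the differences with miR-483-5p were 0.27, 0.37 and 0.12. TTK, the kinase MPS1 that starts checkpoint signalling, differed by 0.33 and 0.18.

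The chromosomal passenger complex, which corrects faulty attachments, and the shugoshins, which protect centromeric cohesion, all stood on the higher side under miR-483-5p (6 of 6), at a median of 0.22, and 3 of them lay apart. That median was 0.332 without the second miR-483-5p array. With miR-483-3p it was 0.27, and 0.173 without the first control array. SGO2 read 779 and 753 under miR-483-5p, against 496 and 579 under the scrambled mimic and 617 under miR-483-3p. BIRC5, or survivin, read 2869 and 2479 under miR-483-5p, against 1769 and 2059 under the scrambled mimic and 2470 under miR-483-3p. In these probe sets both genes separated every mimic array from the controls, by 0.49 and 0.48 with miR-483-5p and by 0.19 and 0.37 with miR-483-3p. A second SGO2 probe set gave 0.37 with miR-483-5p and -0.12 with miR-483-3p, whose array lay below both controls. The other BIRC5 probe sets gave 0.04 to 0.41 with miR-483-5p and -0.17 to 0.41 with miR-483-3p.

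SGO1 read 76.8 and 85.7 under miR-483-5p, against 87.8 and 73.4 under the scrambled mimic and 107 under miR-483-3p. Its miR-483-5p arrays lay within the range of the controls, and the miR-483-3p array was above them by 0.31 (SE 0.18). A dimmer SGO1 probe set gave 0.32 with miR-483-5p, with both arrays above both controls, and 0.10 with miR-483-3p. INCENP, the scaffold of the complex, read 90.7 and 114 against 91.2 and 90.1, and 91.5 with miR-483-3p, a difference of 0.01 there. AURKB, its kinase, differed by 0.25 and 0.22 with overlapping miR-483-5p and control arrays, and CDCA8, or borealin, by 0.18 and 0.34.

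Spindle genes divided into a larger set above the control with miR-483-5p and a pair that was not. The class median was 0.38, and 6 of 8 lay apart and higher. HMMR, a microtubule-binding protein of spindle poles, read 739 and 602 under miR-483-5p, against 428 and 394 under the scrambled mimic and 442 under miR-483-3p. The miR-483-5p arrays were above all others, by 0.66 (SE 0.16), or 1.58-fold, against the control, whereas miR-483-3p exceeded the control by 0.10 (SE 0.19). A second HMMR probe set showed the same pattern, at 499 and 457, 267 and 293, and 291, differences of 0.71 and 0.05.

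ASPM, a spindle pole protein, read 2181 and 2191 under miR-483-5p, against 1440 and 1499 under the scrambled mimic and 1823 under miR-483-3p, which lay between both groups. Its differences were 0.56 (SE 0.14) and 0.31 (SE 0.17). The other ASPM probe sets, much dimmer, gave 0.08 and 0.17 with miR-483-5p and 0.04 and -0.17 with miR-483-3p. In the second of these the miR-483-5p and control arrays overlapped. NEK2, a centrosomal kinase, differed by 0.53 and 0.26, with 0.30 and 0.26 in its second probe set. AURKA, the spindle pole kinase, differed by 0.36 and 0.23, and another bright probe set gave 0.57 and 0.49. NUSAP1 and PRC1, which bundle microtubules, differed by 0.36 and 0.40 with miR-483-5p. A second bright NUSAP1 probe set gave 0.06 with miR-483-5p and 0.15 with miR-483-3p, and its miR-483-5p and control arrays overlapped.

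TPX2, the activator of AURKA, was the one member with both miR-483-5p arrays below both controls. It read 1275 and 1355 under miR-483-5p, against 1396 and 1526 under the scrambled mimic and 1695 under miR-483-3p. The difference was -0.15 (SE 0.14, limma adjusted p = 0.748) with miR-483-5p and 0.21 (SE 0.17, adjusted p = 0.905) with miR-483-3p. PLK1, the polo-like kinase whose promoter is shown above, read 857 and 676 under miR-483-5p, against 779 and 839 under the scrambled mimic and 868 under miR-483-3p, and its miR-483-5p arrays lay on either side of the controls.

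**Figure D4:**
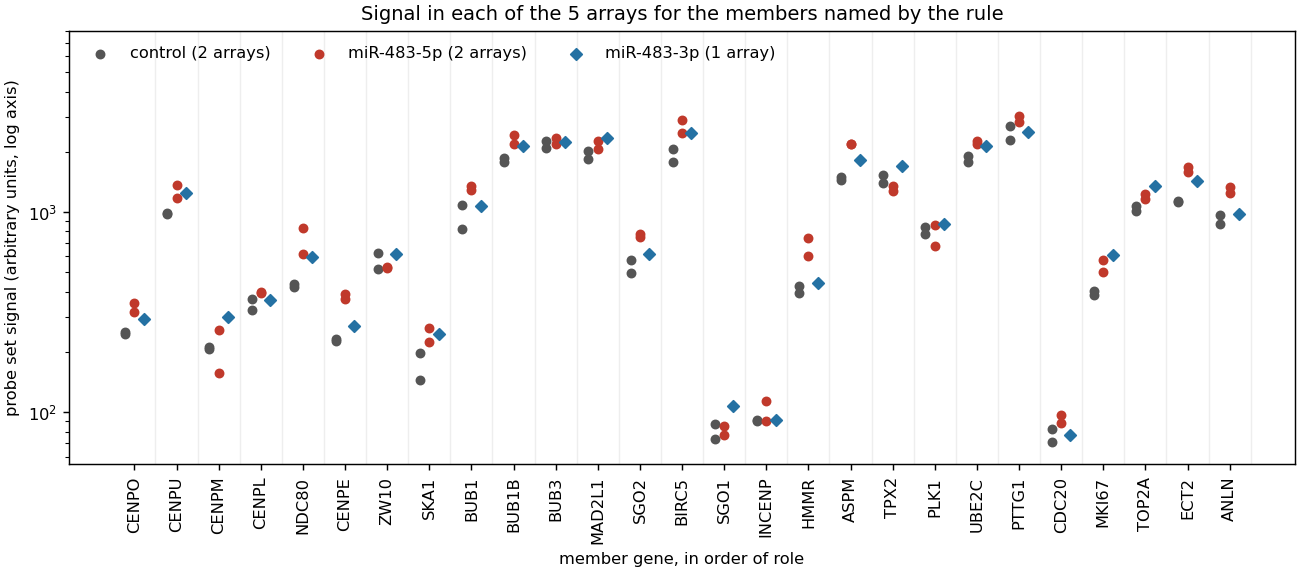
Signal of the brightest probe set in each of the 5 arrays for 27 members named by a rule within each role class, on a log axis: control (grey circles, 2 arrays), miR-483-5p (red circles, 2 arrays) and miR-483-3p (blue diamond, 1 array). Groups are compared within a gene and not between genes, and the red circles stand above the grey ones in genes such as CENPE and HMMR and below them in TPX2.

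The genes of anaphase onset had medians of 0.23 with miR-483-5p and 0.02 with miR-483-3p. Without the first control array these were 0.117 and -0.076. UBE2C, the ubiquitin-conjugating enzyme of the anaphase-promoting complex, read 2254 and 2197 under miR-483-5p, against 1787 and 1912 under the scrambled mimic and 2126 under miR-483-3p. PTTG1, or securin, read 3004 and 2825 against 2293 and 2688, and 2513 with miR-483-3p. CDC20, the activator that the checkpoint restrains, read 96.9 and 88.4 against 71.0 and 82.9, and 77.0 with miR-483-3p. In all 3 genes the miR-483-5p arrays were above both controls, by 0.26, 0.23 and 0.20, whereas with miR-483-3p PTTG1 and CDC20 lay between them.

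The chromosome structure class holds a pair of genes, and both had a larger difference under miR-483-3p in the probe set used. MKI67, the Ki-67 protein that coats mitotic chromosomes, read 501 and 574 under miR-483-5p, against 386 and 402 under the scrambled mimic and 610.4 under miR-483-3p. The miR-483-3p array was the highest, 0.59 (SE 0.18) or 1.51-fold above the control (limma adjusted p = 0.638), and miR-483-5p was 0.42 above it. The other 3 MKI67 probe sets gave 0.32 to 0.70 with miR-483-5p and 0.34 to 0.53 with miR-483-3p, and in 1 of them miR-483-5p was the larger, at 0.70 against 0.53. TOP2A, the topoisomerase that untangles sister chromatids, read 1226 and 1164 under miR-483-5p, against 1018 and 1076 under the scrambled mimic and 1350 under miR-483-3p, with the same order of groups. Its second bright probe set gave 0.16 and 0.10, with miR-483-5p the larger. With all probe sets of a gene averaged, the class median under miR-483-3p was 0.303 in place of 0.48.

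Both cytokinesis genes stood apart with miR-483-5p, at a class median of 0.49, or 0.314 with all probe sets of a gene averaged. ECT2, the exchange factor that activates RHOA at the division plane, read 1671 and 1582 under miR-483-5p, against 1137 and 1126 under the scrambled mimic and 1428 under miR-483-3p. ANLN, or anillin, which scaffolds the contractile ring, read 1336 and 1243 against 874 and 962, and 979 with miR-483-3p. In these probe sets the miR-483-5p differences were similar, 0.51 and 0.48, while those of miR-483-3p were 0.33 and 0.09. A second bright ANLN probe set gave 0.35 with miR-483-5p and 0.28 with miR-483-3p. A dimmer ECT2 probe set gave 0.02 and 0.38, and its miR-483-5p and control arrays overlapped.

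Set against each other directly, the arms did not differ in any member by limma's test. The miR-483-5p arrays were both above the miR-483-3p array in 26 members, beside 34.4% of all genes, and both below it in 13, beside 33.5%. HMMR had the lowest p, with miR-483-5p higher by 0.56 (SE 0.19, adjusted p = 0.678), then CENPE by 0.44 (SE 0.17, adjusted p = 0.710). In the other direction CENPM was lower with miR-483-5p by -0.51 (SE 0.26, adjusted p = 0.792) and TPX2 by -0.36 (SE 0.17, adjusted p = 0.790). The standard errors show that a difference between arms of the size seen for most members, with a median of 0.11, was not detectable with these arrays. Leaving out the first miR-483-5p array brought that median to 0.046.

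A gene measured by several probe sets gives a check within the same arrays. Of the 94 probe sets, 85 passed the filter, and 75 of these were higher with miR-483-5p and 77 with miR-483-3p. Signs were taken over all 94 probe sets, those under the filter included. Among the 23 members with more than 1 probe set, all probe sets of 16 had one sign with miR-483-5p. The exceptions were BUB1, BUB3, CENPI, CENPN, CENPO, SPC24 and TOP2A. In BUB3, CENPI, SPC24 and TOP2A the negative sign came only from probe sets under the filter, at mean signals of 5.62 to 19.3. With miR-483-3p the probe sets of 10 had one sign, and ASPM, AURKA, BIRC5, BUB1, BUB3, CENPF, CENPI, CENPN, CENPO, ECT2, SGO2, SPC24 and TOP2A had both. The negative CENPF value was -0.0, at a mean signal of 26.2. The 45 probe sets not used for their gene had a median difference of 0.24 with miR-483-5p and 0.11 with miR-483-3p.

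**Figure D5:**
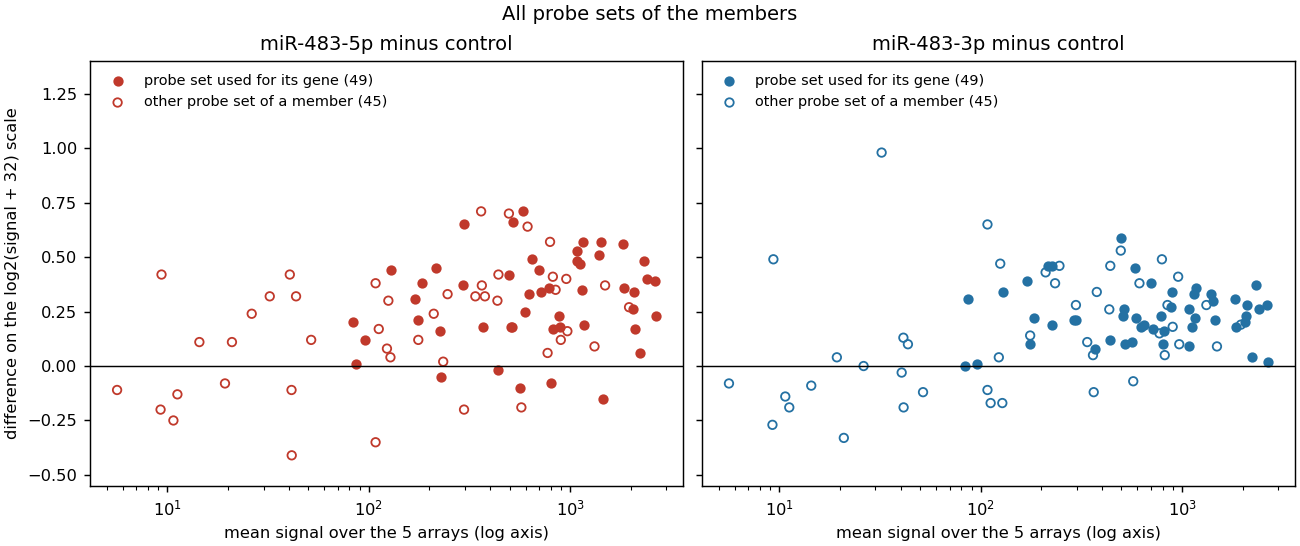
Difference from the control against mean signal over the 5 arrays (log axis) for all 94 probe sets of the members, filled where the probe set stands for its gene and open otherwise. Most bright probe sets lie above 0 under both mimics, and those below a signal of about 100 scatter to both sides.

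Other genes of mitosis, from lists of kinetochore, checkpoint, spindle, condensin and cohesin genes, lay on the same side of the control. Of 75 measured, 66 were higher with miR-483-5p and 63 with miR-483-3p, with medians of 0.21 and 0.17. None passed limma's test, and at an unadjusted p under 0.05 there were 19 higher (25.3%) and 1 lower with miR-483-5p and 6 higher (8.0%) and 0 lower with miR-483-3p, beside 5.3% and 2.51% of all genes higher. MIS18A, which helps to load CENPA, read 596 and 556 under miR-483-5p, against 284 and 350.5 under the scrambled mimic and 545 under miR-483-3p, differences of 0.81 and 0.73. The cohesin subunit gene SMC3 differed by 0.65 and 0.52. At the other end were CDC23, a subunit of the anaphase-promoting complex, at -0.38 with miR-483-5p, and TRIP13, which recycles MAD2, at -0.24.

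By kind, the other kinetochore genes had medians of 0.32 with miR-483-5p and 0.26 with miR-483-3p, the other spindle genes 0.24 and 0.18, and condensin and cohesin 0.28 and 0.23. The other checkpoint and anaphase genes stood nearest to the control, at 0.11 and 0.04, with 14 and 13 of 19 higher. A list of 27 genes of G1 and S phase, such as the MCM helicase genes, had medians of 0.19 and 0.32. For miR-483-5p the members' median of 0.34 was thus the larger of the pair, and for miR-483-3p, at 0.22, the smaller. CHR letters stood in 31.4% of the promoter windows of the other mitotic genes (22 of 70) and in 4.35% of those of the G1 and S phase list (1 of 23), beside 61.0% in the members. CCAAT letters stood in 44.3% and 60.9% of these windows, and E2F letters in 17.1% and 34.8%.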

How the data were processed

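The authors deposited linear probe set intensity for 5 arrays. GCOS and Partek appear in the submitters' processing notes without a version, and which algorithm made the signals is not stated there. The deposited intensity columns share a trimmed mean of 150, taken without 2% at each end. No detection calls were used.

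Groups came from the treatment labels. Of 54675 probe sets, 62 controls were left out, and 41097 with 1 gene symbol were named through the platform annotation, updated by gene identifier to RefSeq GRCh38.p14. Each gene was represented by its probe set with the highest mean log2 value, and genes were left out when that probe set fell among the dimmest 40% of the probe sets other than controls, leaving 14591. The model, run in limma 3.58.1 under R 4.3.3 on log2(signal + 32), had a mean per group over 5 arrays, with 2 residual degrees of freedom and 4.96 from the prior. The miR-483-3p group adds none and is assumed to vary like the others. Tests were two-sided with Benjamini-Hochberg adjustment over all genes tested and a threshold of 0.05. The script was checked on data made with known changes.

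The members, lists and classes were chosen with earlier results of these data known, so no list test was made. Values in every array are given, per role class, for the 2 highest and the lowest miR-483-5p differences and the highest and lowest of miR-483-3p, and for further members chosen after their values were seen. Promoter windows came from RefSeq. Sequences of the mimics are not used here. Alternatives covered normalization, filter, pseudocount, probe sets, variance prior, each paired array left out and a block for repeats. Figures used matplotlib 3.10.9.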

Additional observations from a re-analysis of the deposited data

Results flagged for a closer look

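TPX2 lay on opposite sides of the control with the 2 arms, below both control arrays in both miR-483-5p arrays and above both in the single miR-483-3p array. The difference between the arms was -0.36 on the log2(signal + 32) scale, and limma's test of it gave an adjusted p of 0.790.

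The probe set listed for both SLC35F6 and CENPA and used in no comparison, had a mean signal of 1019 under miR-483-5p and 826 under the scrambled mimic, with both miR-483-5p arrays above both controls.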

How the results depend on the processing

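No member was called under any of the 14 alternatives in any comparison, and the lowest adjusted p of a member was 0.0559, for miR-483-5p with a variance prior that follows intensity. Calls over all genes for miR-483-5p moved from 0 to 37 with median centring, 33 with a pseudocount of 100, 39 with the prior that follows intensity and 1 with a filter at the 60th percentile. For miR-483-3p they moved to 2, 1 and 1 under the first 3 of these, and between the arms to 7 with median centring. The causes of these moves were not tested. The members' median with miR-483-5p was 0.259 to 0.373 with 1 array left out and 0.228 when all probe sets of a gene were averaged. Between the arms it was 0.046 to 0.13. With every probe set on its own the counts rest on 85 probe sets. Of these, 75, 77 and 51 were higher with miR-483-5p, with miR-483-3p and between the arms, and 63 and 67 lay apart and higher with miR-483-5p and miR-483-3p. Members at an unadjusted p under 0.05 with miR-483-5p were 15 with a pseudocount of 1 and 8 to 17 with 1 array left out. With miR-483-3p they were 2 without a filter, 3 with the 60th percentile filter, 8 with a pseudocount of 100, 3 with the mean of probe sets, 4 of 85 with every probe set, 9 with the prior that follows intensity and 1 to 3 with 1 array left out. The share of all genes higher at that p was 3.68% to 7.76% with miR-483-5p and 2.12% to 3.6% with miR-483-3p over these alternatives.

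Leaving out 1 array turned the direction of small differences. With miR-483-5p the ranges were -0.361 to 0.253 for CENPM, -0.22 to 0.02 for ZW10, -0.002 to 0.124 for BUB3, -0.082 to 0.103 for SGO1 and -0.248 to 0.082 for PLK1. With miR-483-3p they were -0.009 to 0.161 for CENPL, -0.012 to 0.229 for ZW10, -0.009 to 0.376 for BUB1, -0.023 to 0.103 for BUB3, -0.096 to 0.13 for PTTG1 and -0.076 to 0.082 for CDC20. PTTG1 was also at -0.025 with quantile normalization. Without the first control array 42 of 49 members were higher with miR-483-3p. A replicate block that pairs first arrays with repeats left the miR-483-5p median at 0.339. With it, 25 members were higher at an unadjusted p under 0.05 with miR-483-5p, beside 6.77% of all genes. With miR-483-3p there were 3, beside 3.6%. The block changed no call at an adjusted p under 0.05, and the labels do not say that repeats of different groups share a day. The number of arrays limits every value.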
